A study of Mus musculus with 57 samples.

Results

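The 72 genes of cytochrome P450 families 1 to 4 that the arrays measured are described here, of 22180 genes measured in all. They are the genes named singly in the array's probe table whose symbol is Cyp, a family number from 1 to 4, a subfamily letter and a gene number. Family 1 has 3 of them, family 2 has 47, family 3 has 7 and family 4 has 15. Each gene is given by its brightest probe set, and 3 of the 72 had several. The RNA came from distal colon of C57BL/6 mice aged 18 to 24 weeks, with 57 arrays in 6 groups. INSRfl/fl mice (fl/fl here) have a floxed insulin receptor gene, Insr, and in their villin-CRE-INSR-/- littermates (knockout here) Cre under the villin promoter inactivates Insr in intestinal epithelium, so that other cells of the colon still carry it. Untreated colon was taken from 10 fl/fl and 10 knockout mice. Colon after AOM+DSS came from 10 and 10 mice and tumors after AOM+DSS from 8 and 9, where AOM (azoxymethane) is a colon carcinogen given by injection at 7.4 mg/kg, and DSS (dextran sulfate sodium) is an agent that injures the colon epithelium, given at 3% for 7 days from week 2. Tissue was taken in week 5, and the treatment protocol names females. Whether any mouse gave both colon and tumor is not in the labels. Levels are log2 values of normalized array signal, so a difference of 1 is a 2-fold difference, and a level is set only against the level of the same gene in other samples.

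Cytochrome P450 enzymes are heme proteins of the endoplasmic reticulum that insert an oxygen atom into their substrates, with electrons passed on by P450 oxidoreductase and cytochrome b5. Families 1 to 3 are best known for the oxidation of drugs, carcinogens and other foreign compounds, and several Cyp2c, Cyp2j and Cyp4 enzymes make signalling lipids from arachidonic acid or break down leukotrienes. In the gut they sit mainly in the epithelium, and the nuclear receptors for xenobiotics, bile acids and vitamin D, the aryl hydrocarbon receptor and the HNF4 factors are known regulators of their genes. AOM itself is oxidised by P450 enzymes, foremost Cyp2e1, on its way to the form that alkylates DNA.

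The Cyp2c genes lie along mouse chromosome 19, most of them in 1 cluster. Promoters are shown for the gene with the largest fall in tumors and for the Cyp2c members found to hold a known HNF4 site. Of the genes shown, Cyp2c70 alone passed in tumors of neither genotype. Each line gives 120 bases from upstream of the start site, 5′ to 3′ on the strand of the gene, from RefSeq (GRCm38.p6). The lines run from base 120 to base 1 before the start, except that of Cyp2c65, which runs from base 156 to base 37 so as to hold its site, with capitals marking CAAAGTCCA, a known HNF4 site searched on both strands. The Cyp2c55 promoter (chr19:39006899-39007018, plus strand) is shown first, as the gene with the largest fall.
Cyp2c55: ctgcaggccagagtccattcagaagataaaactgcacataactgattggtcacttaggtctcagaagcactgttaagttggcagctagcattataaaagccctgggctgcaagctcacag
The other promoters shown were picked because they hold the site: Cyp2c65 (chr19:39060850-39060969, plus strand), Cyp2c68 (chr19:39741102-39741221, minus strand), Cyp2c69 (chr19:39886770-39886889, minus strand), Cyp2c40 (chr19:39812815-39812934, minus strand) and Cyp2c70 (chr19:40187287-40187406, minus strand).
Cyp2c65: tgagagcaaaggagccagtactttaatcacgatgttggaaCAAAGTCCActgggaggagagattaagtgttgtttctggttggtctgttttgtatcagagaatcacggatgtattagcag
Cyp2c68: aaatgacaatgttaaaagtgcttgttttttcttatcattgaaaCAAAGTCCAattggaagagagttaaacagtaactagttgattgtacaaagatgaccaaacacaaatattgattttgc
Cyp2c69: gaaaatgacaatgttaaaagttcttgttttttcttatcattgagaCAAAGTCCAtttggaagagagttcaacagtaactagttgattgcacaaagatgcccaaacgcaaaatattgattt
Cyp2c40: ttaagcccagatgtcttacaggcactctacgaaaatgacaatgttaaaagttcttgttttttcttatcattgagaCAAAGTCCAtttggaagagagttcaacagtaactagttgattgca
Cyp2c70: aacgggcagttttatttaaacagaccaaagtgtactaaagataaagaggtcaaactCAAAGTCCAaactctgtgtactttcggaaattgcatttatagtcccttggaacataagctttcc

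The site began 116 bases before the start in Cyp2c65, 77 in Cyp2c68, 75 in Cyp2c69, 45 in Cyp2c40 and 64 in Cyp2c70. The Cyp2c68, Cyp2c69 and Cyp2c40 sequences are copies of each other with few changes, so their matches are not independent. RefSeq windows of 250 bases before to 50 after the start were found for 60 of the 72 members. CAAAGTCCA or its reverse complement was in the windows of 7 members, or 11.7% of the 60, and in 0.475% of the 32851 windows of all genes. The other 2 were Cyp3a11 and Cyp3a16. No match was found for any other Cyp2c member with a window, Cyp2c55 among them. TATAAA, the TATA box, was found for 25 members, or 41.7%, against 13.6% of all windows. GCGTG, the core bound by the aryl hydrocarbon receptor, was found for 13 members, or 21.7%, against 32.4% of all windows, and the 13 include Cyp1a1 and Cyp1b1. CAAGGTCA, a site of the nuclear receptor Nr5a2, was found for no member and in 1.56% of all windows. Shares of members are per gene and shares of all genes are per window. Counted per window, 7 of the members' 67 windows held CAAAGTCCA, 25 held TATAAA and 14 held GCGTG. The motifs were searched on both strands, and a match is a run of letters, not a measured binding site. The site was in members whose level fell in tumors of both genotypes (Cyp2c65, Cyp2c68, Cyp2c69), in members that passed in 1 genotype (Cyp2c40, lower, and Cyp3a16, higher) and in members that passed in neither (Cyp2c70, Cyp3a11).

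As a check of the labels, mean Insr levels in fl/fl and knockout samples were 8.98 and 8.04 in untreated colon, 8.58 and 7.74 after AOM+DSS and 8.18 and 7.53 in tumors, differences of -0.94, -0.84 and -0.65 with limma's adjusted p of 6.71e-09, 2.32e-07 and 0.00234. The genotypes did not overlap in either colon condition, but they did in tumors. Knockout tumor replicate 8 was at 8.35, above the fl/fl tumor median of 8.20, and the next highest knockout tumor was at 7.79. The check does not bear out the label of that tumor. Untreated knockout replicate 2 stood apart, with the lowest mean correlation with its own group of all arrays (0.981). The tissue label was checked on marker lists. The mean of 10 surface colonocyte genes lay between 10.95 and 11.94 in all colon arrays. The mean of 8 small-intestinal enterocyte genes was more than 2 above its group median in 3 arrays: fl/fl AOM+DSS replicate 7 (11.18), knockout AOM+DSS replicate 10 (10.26) and fl/fl tumor replicate 6 (9.33). Calls of the members below that change without the array apart or without the 3 others are given both ways.

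In untreated fl/fl colon the members spanned levels from 3.04 (Cyp2c66) to 12.88 (Cyp2c55). Of the 72, 26 had a group mean above 6.62, the median level of all genes, in at least 1 of the 6 groups, and the other 46 were dim throughout. In the subfamilies of 3 or more members, the brightest probe sets were those of Cyp2c55 (12.88 ± 0.20 in fl/fl and 12.64 ± 0.32 in knockout untreated colon, SD, n = 10 each), Cyp2d34 (11.58 ± 0.20 and 11.46 ± 0.23), Cyp3a13 (10.00 ± 0.31 and 10.01 ± 0.27), Cyp4f13 (9.45 ± 0.13 and 9.40 ± 0.13) and Cyp2j6 (8.23 ± 0.10 and 8.15 ± 0.16). Those of Cyp2a22 (6.86 ± 0.28 and 6.74 ± 0.20), Cyp2b10 (5.25 ± 0.27 and 5.23 ± 0.73) and Cyp4a31 (5.19 ± 0.40 and 5.06 ± 0.29) led subfamilies with no brighter member. Probe sets differ in sensitivity, so this order is that of the signals.

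The first question was how tumors differed from the AOM+DSS colon of the same genotype. Most Cyp2d members fell, as did some Cyp2c and Cyp4f members and, of the Cyp3a members, Cyp3a13 alone. Few members rose. In fl/fl mice 26 of the 72 members were lower in tumors (limma, adjusted p under 0.05), where 20.2% of all genes were lower, and 4 were higher, where 21% of all genes were. In knockout mice 25 were lower, against 21.4% of all genes, and 4 were higher, against 21.5%. In both genotypes 24 members were lower and 3 higher. Falls of at least 2-fold that passed were seen in 18 members in fl/fl and 13 in knockout mice, against 3.09% and 3.26% of all genes. Rises of that size were seen in 1 member in each, against 1.97% and 1.72%. The median change over all 72 members was -0.14 in fl/fl and -0.16 in knockout mice, and over all genes it was 0.02 and 0.00. Every tumor lay below every AOM+DSS colon array for 14 members in fl/fl mice, where this held for 6.38% of all genes, and for 12 in knockout mice, where it held for 7.24%. For no member did every tumor lie above every AOM+DSS colon array, as held for 5.61% of all genes in fl/fl and 7.46% in knockout mice.

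**Figure D1:**
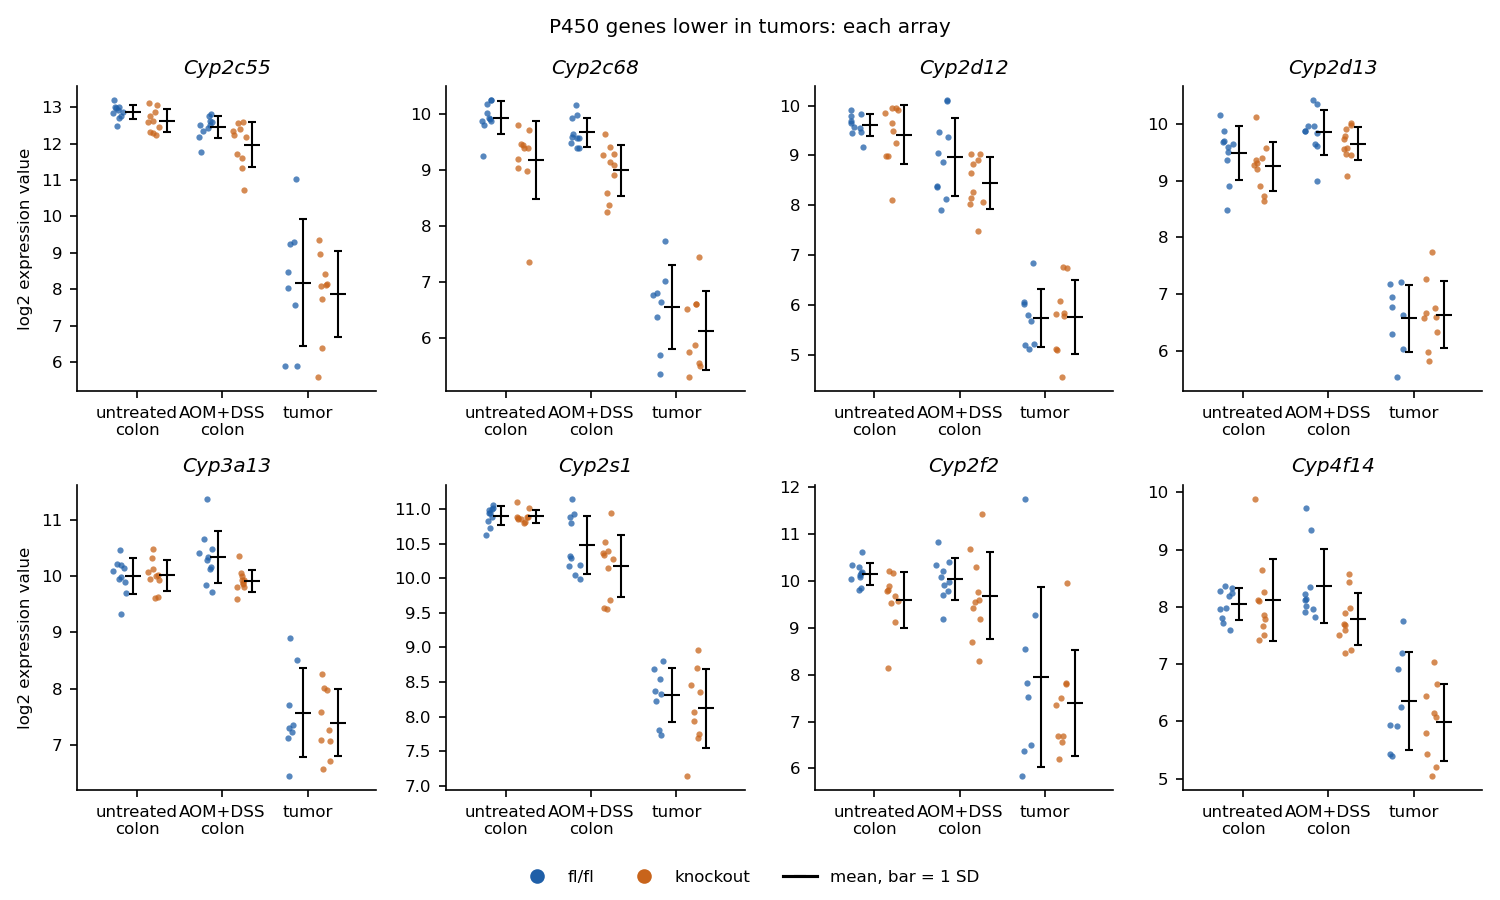
Log2 expression value (vertical axes, which differ between genes and do not start at 0) of 8 P450 genes that fell in tumors, 1 point per array, in untreated colon, AOM+DSS colon and tumors of fl/fl (blue) and knockout (orange) mice. Black dashes are means and bars 1 SD. Tumors lie below all AOM+DSS colon arrays of their genotype for each gene but Cyp2f2, whose highest fl/fl tumor is at 11.75 and highest knockout tumor at 9.96.

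Cyp2c55, an arachidonic acid hydroxylase of the colon, fell most. In fl/fl mice its lowest, median and highest levels were 11.78, 12.52 and 12.83 after AOM+DSS and 5.90, 8.25 and 11.03 in tumors. In knockout mice they were 10.73, 12.21 and 12.60 after AOM+DSS and 5.58, 8.11 and 9.37 in tumors. The groups did not overlap in either genotype, and the tumors spread far more widely than the colon samples. The falls were 4.28 ± 0.39 (SE) in fl/fl and 4.11 ± 0.38 in knockout mice, or 19.5-fold and 17.2-fold (limma, adjusted p = 7.11e-14 and 9.73e-14). A second probe set that the table assigns to Cyp2c55, with group means from 6.80 to 6.94, did not pass, with changes of 0.13 ± 0.10 and 0.12 ± 0.10 (limma, adjusted p = 0.365 and 0.382). The 2 probe sets disagree, and the values given for Cyp2c55 elsewhere are those of the first. In whole tissue, fewer cells of a type and less RNA per cell cannot be told apart, here or for any member below.

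Cyp2c68, a neighbour in the same cluster, showed the second large fall of the subfamily. Its levels in fl/fl mice were 9.40, 9.60 and 10.17 after AOM+DSS and 5.35, 6.70 and 7.74 in tumors (lowest, median and highest). In knockout mice they were 8.26, 9.12 and 9.66 after AOM+DSS and 5.30, 5.87 and 7.46 in tumors. No tumor reached the lowest AOM+DSS colon array of its genotype. The falls were 3.13 ± 0.25 and 2.87 ± 0.24, or 8.77-fold and 7.32-fold (limma, adjusted p = 6.88e-16 and 4.45e-15). A separate probe set that the table assigns to Cyp2c67 and Cyp2c68 together, and which is no member, changed by -2.56 and -1.81 (limma, adjusted p = 6.84e-15 and 1.54e-10). Genes of this cluster are near copies, and how far each probe set also reads its neighbours was not tested.

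Along the Cyp2c cluster the change was uneven. Of its 14 members, 6 fell in fl/fl and 5 in knockout mice, where 20.2% and 21.4% of all genes were lower. Cyp2c65, next to Cyp2c55, fell by 1.19 ± 0.39 and 1.51 ± 0.38 (limma, adjusted p = 0.0102 and 0.000679). Cyp2c69 fell by 1.38 ± 0.19 and 0.61 ± 0.19 (limma, adjusted p = 2.23e-08 and 0.00577). Cyp2c40, an arachidonic acid hydroxylase, fell in fl/fl mice by 1.01 ± 0.15 (limma, adjusted p = 1.19e-07), and in knockout mice its change was -0.29 ± 0.15 (limma, adjusted p = 0.116). Cyp2c23, an epoxygenase last in this order along the chromosome, fell by 1.0 ± 0.12 in fl/fl and by 0.85 ± 0.12 in knockout mice, with no overlap between tumors and colon. Between these, the dim members Cyp2c66, Cyp2c29, Cyp2c39, Cyp2c38, Cyp2c37, Cyp2c54 and Cyp2c70 passed in neither genotype, with changes from -0.39 to 0.12. Of the members that fell, Cyp2c65, Cyp2c69 and Cyp2c40 were dim in every group too. Cyp2c50, also dim, was higher in knockout tumors by 0.35 ± 0.13 (limma, adjusted p = 0.0249), and its fl/fl change was 0.01.

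**Figure D2:**
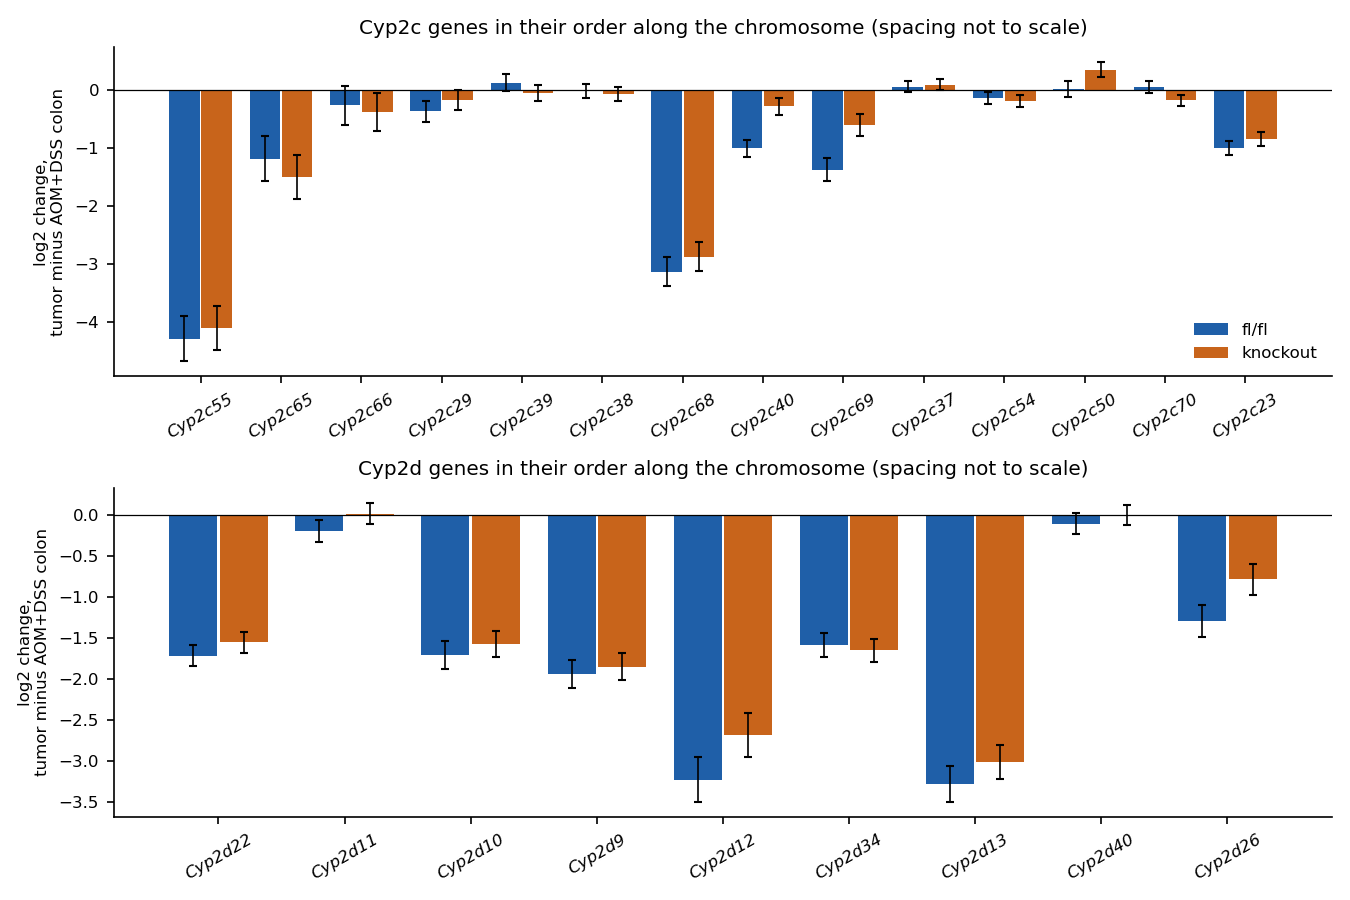
Log2 change, tumor minus AOM+DSS colon (vertical axis, bars from 0, error bars 1 SE), of the 14 Cyp2c and 9 Cyp2d members in their order along the chromosome in GRCm38.p6, not drawn to distance, for fl/fl (blue) and knockout (orange) mice. Falls in the Cyp2c row are split by a stretch of members near 0, and 7 of 9 Cyp2d members fell.

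The Cyp2d subfamily, the mouse counterpart of the human drug oxidase CYP2D6, fell more evenly. Of its 9 members 7 fell in both genotypes, where 20.2% of all genes were lower in fl/fl and 21.4% in knockout tumors. The median change over the 9 was -1.71 in fl/fl and -1.58 in knockout mice. Cyp2d13, annotated as a transcribed pseudogene, had levels of 9.00, 9.88 and 10.42 after AOM+DSS and 5.53, 6.70 and 7.20 in tumors of fl/fl mice. The knockout values were 9.08, 9.66 and 10.02 against 5.82, 6.59 and 7.73. The tumors lay below all colon samples, with falls of 3.28 ± 0.21 and 3.02 ± 0.21 (limma, adjusted p = 1.79e-19 and 1.34e-18).

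Cyp2d12 had levels of 7.91, 8.96 and 10.11 after AOM+DSS and 5.12, 5.74 and 6.84 in tumors of fl/fl mice. Knockout mice had 7.48, 8.45 and 9.03 against 4.55, 5.82 and 6.76. Here too the groups did not overlap, and the falls were 3.23 ± 0.27 and 2.69 ± 0.26, or 9.40-fold and 6.44-fold (limma, adjusted p = 3.92e-15 and 7e-13). Cyp2d9 fell by 1.94 ± 0.17 and 1.86 ± 0.16, Cyp2d10 by 1.71 ± 0.17 and 1.58 ± 0.16, and Cyp2d34 by 1.59 ± 0.14 and 1.65 ± 0.14. Cyp2d22, often compared with CYP2D6, fell by 1.72 ± 0.13 and 1.56 ± 0.13. In these 4 genes as well no tumor reached an AOM+DSS colon sample of its genotype. Cyp2d26 fell by 1.30 ± 0.19 and 0.79 ± 0.19 with overlapping groups. The dim members Cyp2d11 and Cyp2d40 passed in neither genotype, with changes from -0.20 to 0.01.

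Cyp3a13, a drug- and steroid-oxidising enzyme of the gut, was the brightest member of family 3. In fl/fl mice its levels were 9.72, 10.31 and 11.37 after AOM+DSS and 6.45, 7.33 and 8.91 in tumors. The knockout levels were 9.60, 9.91 and 10.35 against 6.57, 7.27 and 8.26. The highest tumor of each genotype lay below its lowest colon sample, and the falls were 2.77 ± 0.21 and 2.52 ± 0.21, or 6.81-fold and 5.76-fold (limma, adjusted p = 1.23e-16 and 9.79e-16). The other 6 Cyp3a members were dim. Of these Cyp3a16 was higher in fl/fl tumors, by 0.21 ± 0.07 at a mean level of 3.10 (limma, adjusted p = 0.0123), and no other passed.

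Cyp2s1, an epithelial enzyme with retinoid and lipid substrates, was lower without overlap, with changes of -2.17 ± 0.17 and -2.06 ± 0.17 (limma, adjusted p = 4.9e-16 and 8.26e-16). Cyp2f2, best known from airway club cells, where it activates naphthalene, was lower with changes of -2.09 ± 0.45 and -2.29 ± 0.43 (limma, adjusted p = 9e-05 and 1.11e-05), with overlap. Single tumors stood far above the others for Cyp2f2. fl/fl replicate 4 reached 11.75 against a group median of 7.68, and knockout replicate 6 reached 9.96 against 7.35. The same 2 arrays had the highest means of 11 squamous epithelium genes among tumors, 9.16 and 8.62 against group medians of 6.41 and 6.20. In AOM+DSS colon the median of this list mean was higher, 8.18 in fl/fl and 8.02 in knockout mice. In untreated colon it was 5.43 and 5.46. The part of these genes' tissue in the Cyp2f2 level and its fall was not tested. A second, dimmer Cyp2f2 probe set fell by 0.73 and 0.64.

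In family 4 the enzymes that hydroxylate fatty acids and leukotrienes fell in part. Of its 15 members 6 were lower in each genotype, where 20.2% of all genes were lower in fl/fl and 21.4% in knockout tumors. Of these members 5 were lower in both. Cyp4f14, a leukotriene B4 hydroxylase, fell by 2.01 ± 0.28 and 1.80 ± 0.27 with no overlap (limma, adjusted p = 2.47e-08 and 1.46e-07). Cyp4f40 fell by 0.91 and 0.83, Cyp4b1 by 0.69 and 0.61, Cyp4f13 by 0.70 and 0.37, and Cyp4v3 by 0.46 and 0.48, the last in fl/fl mice not with only the compared groups in the fit (adjusted p = 0.0986). Cyp4f16 was lower in fl/fl tumors (-0.37, against -0.13 in knockout mice) and Cyp4x1 in knockout tumors (-0.24, against -0.03 in fl/fl mice). Neither difference between genotypes passed as an interaction. None of the 3 Cyp4a members passed, with changes from 0.01 to 0.31.

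The remaining falls in both genotypes were those of Cyp2e1 (-1.21 ± 0.35 and -0.86 ± 0.34), Cyp2j9 (-0.62 ± 0.10 and -0.53 ± 0.10), Cyp2u1 (-0.50 ± 0.10 and -0.34 ± 0.10) and Cyp2w1 (-0.43 ± 0.15 and -0.36 ± 0.15). Cyp2e1 ranged from 5.33 to 7.90 in untreated colon, 6.39 to 8.08 after AOM+DSS and 5.25 to 7.20 in tumors of fl/fl mice. In knockout mice the ranges were 5.46 to 8.82, 5.73 to 8.00 and 5.23 to 6.77. Tumors thus overlapped untreated colon in both genotypes. The Cyp2w1 call in knockout tumors did not hold in 4 of the alternative analyses (adjusted p from 0.0546 to 0.0664). None of the 4 Cyp2a members passed, with changes from -0.06 to 0.21. Cyp2r1, a vitamin D 25-hydroxylase, changed by -0.14 and 0.07 and did not pass.

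**Figure D3:**
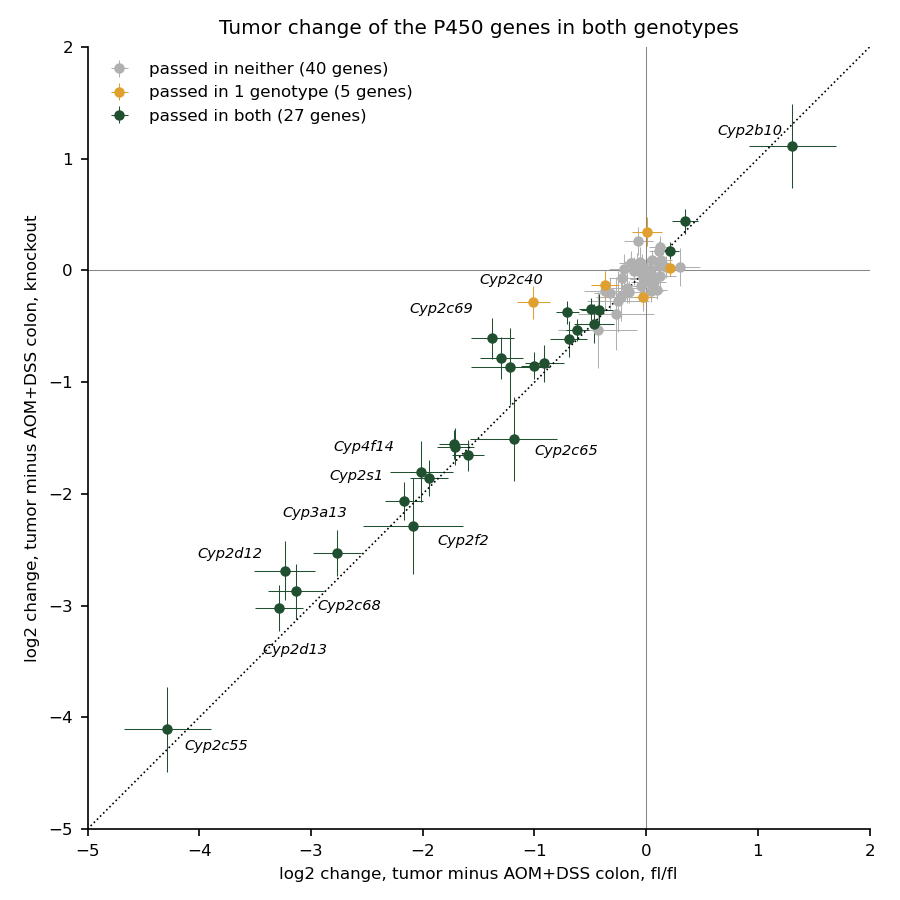
Log2 change, tumor minus AOM+DSS colon, of each of the 72 P450 genes in fl/fl (horizontal axis) and knockout mice (vertical axis), with bars of 1 SE and a dotted line of equal change. The 27 genes that passed in both genotypes are dark green, 5 that passed in 1 genotype yellow and 40 that passed in neither grey. Cyp2c55 is farthest toward the lower left and Cyp2b10 toward the upper right.

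Cyp2b10, the classic target of the xenobiotic receptor Nr1i3, was the 1 member that rose at least 2-fold. Its levels in fl/fl mice were 4.37, 5.26 and 9.76 after AOM+DSS and 6.36, 6.97 and 7.73 in tumors. Those of knockout mice were 4.85, 5.58 and 8.03 against 6.50, 6.73 and 7.50. The colon groups each held 1 array above all tumors, fl/fl replicate 7 and knockout replicate 10, which are those with the highest small-intestinal means. The rises were 1.31 ± 0.39 and 1.12 ± 0.38, or 2.48-fold and 2.17-fold (limma, adjusted p = 0.0045 and 0.0122). Without the 3 arrays high in small-intestinal genes they were 1.66 ± 0.25 and 1.36 ± 0.23.

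Cyp4f17 and Cyp2j6 also rose in both genotypes, by less. Cyp4f17 had levels of 6.67, 6.97 and 7.30 after AOM+DSS and 6.90, 7.27 and 7.72 in fl/fl tumors, and 6.44, 6.86 and 7.10 against 6.99, 7.19 and 7.66 in knockout mice. The groups overlapped, with rises of 0.35 ± 0.12 and 0.44 ± 0.11 (limma, adjusted p = 0.0118 and 0.000794). The fl/fl rise was 0.26 without the arrays high in small-intestinal genes (limma, adjusted p = 0.0775). Untreated colon ranged from 6.83 to 7.49 in fl/fl and from 6.49 to 7.62 in knockout mice, which overlaps the tumors of each genotype. In knockout mice Cyp4f17 was lower in AOM+DSS colon than in untreated colon, as given below. Cyp2j6 had levels of 8.12, 8.35 and 8.72 after AOM+DSS and 8.37, 8.55 and 8.96 in fl/fl tumors. In knockout mice its levels were 8.17, 8.30 and 8.48 against 8.16, 8.48 and 8.74. Its rises of 0.22 ± 0.08 and 0.18 ± 0.07 (limma, adjusted p = 0.0163 and 0.0418) were within the spread of single arrays. The fl/fl call ended with only the compared groups in the fit (adjusted p = 0.0672) and the knockout call with a further quantile normalization (adjusted p = 0.114).

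Markers of tissue composition moved in the same comparison. Of 10 surface colonocyte genes, 9 were lower in fl/fl and 10 in knockout tumors, and the list mean lay between 11.15 and 11.82 in fl/fl AOM+DSS colon, 9.06 and 10.68 in fl/fl tumors, 10.95 and 11.56 in knockout AOM+DSS colon and 8.38 and 10.16 in knockout tumors. All 8 smooth muscle genes were lower in both genotypes, and their mean fell from a median of 11.79 to 10.00 in fl/fl and from 11.61 to 9.89 in knockout mice. Of 8 crypt stem cell genes 7 were higher in both. Among all genes, 20.2% were lower and 21% higher in fl/fl tumors, and 21.4% and 21.5% in knockout tumors. The 8 genes shared by all epithelial cells had a median change of -0.05 in each genotype, with 1 higher and 3 lower. The part of these shifts in the P450 falls was not tested.

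Within tumors, Cyp2c55 followed the surface colonocyte mean. Over the 8 fl/fl tumors Pearson's r was 0.968 (exact permutation p = 0.000223, adjusted 0.000893) and Spearman's rho 0.976 (exact permutation p = 0.000397, adjusted 0.00119). Over the 9 knockout tumors r was 0.831 (exact permutation p = 0.00557, adjusted 0.0111) and rho 0.950 (exact permutation p = 0.000353, adjusted 0.00119). Without the 2 arrays farthest from the median list mean, r was 0.965 and 0.842. In the 4 colon groups r lay between 0.302 and 0.731. Fl/fl tumor replicate 7, with the highest Cyp2c55 level of all tumors, also had the highest surface colonocyte mean (10.68), and replicates 1 and 5 had the lowest of both among fl/fl tumors. These relations were 6 of 12 chosen after the values had been seen, all two-sided and adjusted together by the Benjamini-Hochberg method. The adjustment makes no allowance for that choice.

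**Figure D4:**
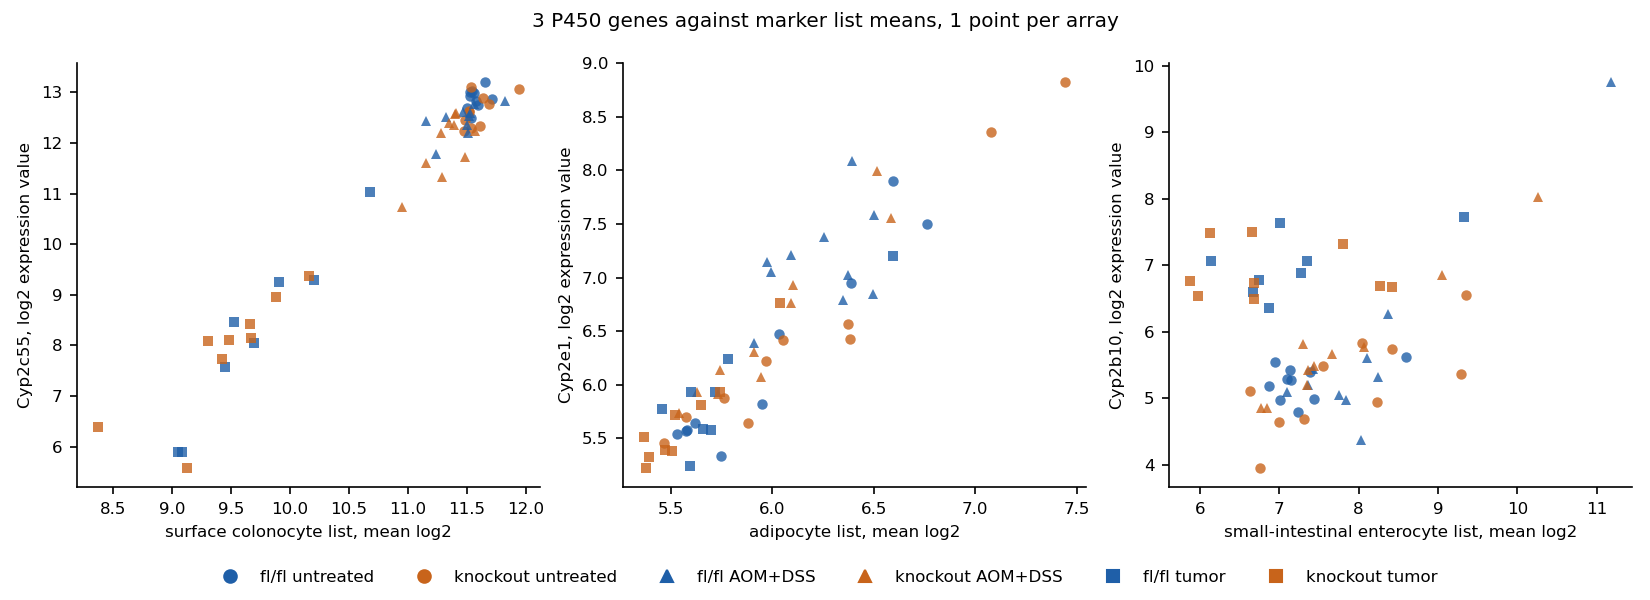
Log2 level of 3 P450 genes (vertical axes) against the mean log2 level of a marker list (horizontal axes), 1 point per array, for fl/fl (blue) and knockout (orange) samples from untreated colon (circles), AOM+DSS colon (triangles) and tumors (squares). Cyp2c55 rises with the surface colonocyte mean from tumors to colon, Cyp2e1 with the adipocyte mean, and the highest Cyp2b10 array is the one with the highest small-intestinal mean.

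Cyp2e1, which oxidises ethanol and AOM, followed markers of another kind. Its level correlated with the mean of 5 adipocyte genes in untreated fl/fl colon (r = 0.952, permutation p = 0.00031, adjusted 0.00093; rho = 0.867, permutation p = 0.00211, adjusted 0.00506) and in untreated knockout colon (r = 0.974, permutation p = 4e-05, adjusted 0.00042; rho = 0.952, permutation p = 0.00013, adjusted 0.00119). It did so in AOM+DSS knockout colon (r = 0.961, permutation p = 7e-05, adjusted 0.00042; rho = 0.939, permutation p = 0.00024, adjusted 0.00119) and in knockout tumors (r = 0.960, exact permutation p = 0.000515, adjusted 0.00124; rho = 0.817, exact permutation p = 0.0108, adjusted 0.0215). Without the 2 farthest arrays these r were 0.909, 0.911, 0.912 and 0.777. In fl/fl tumors r was 0.886 (exact permutation p = 0.0231, adjusted 0.0346), which rests partly on the farthest arrays (0.670 without them), and in fl/fl AOM+DSS colon it was 0.421 (permutation p = 0.232). These too are among the 12 relations chosen after the values had been seen, and the adjusted p make no allowance for that choice. Of the 5 adipocyte genes, 4 had a mean level below the median of all genes. The adipocyte mean ranged from 5.53 to 6.76 in untreated and 5.91 to 6.50 in AOM+DSS fl/fl colon and from 5.45 to 6.60 in fl/fl tumors. In knockout samples it ranged from 5.47 to 7.44, 5.54 to 6.58 and 5.37 to 6.04.

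The second question was how colon after AOM+DSS differed from untreated colon. The P450 changes here were small, and the largest that passed was the fall of Cyp2c69 in knockout mice. No member that passed moved 2-fold, as 0.947% of all genes did upward and 0.0676% downward in fl/fl mice and 1.55% and 0.153% in knockout mice. These comparisons share the AOM+DSS samples with those of the tumors. In fl/fl mice 5 members were lower, against 10.5% of all genes, and 2 were higher, against 12.2%. In knockout mice 14 were lower, against 14.2% of all genes, and 2 were higher, against 16%. Cyp2c69, Cyp2d22, Cyp4f13 and Cyp4f16 were lower in both genotypes, and Cyp4f18 was higher in both. Cyp2c69 and Cyp4f18 were dim in every group. The median change over the 72 members was -0.07 in fl/fl and -0.09 in knockout mice, and over all genes -0.04 in each.

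Cyp2c69 had levels of 5.48, 6.58 and 7.19 in untreated and 4.92, 5.56 and 6.18 in AOM+DSS fl/fl colon, and 5.19, 5.86 and 6.51 against 3.80, 4.92 and 5.48 in knockout colon. The groups overlapped, and it fell by 0.84 ± 0.18 in fl/fl and by 1.0 ± 0.18 in knockout mice (limma, adjusted p = 0.000444 and 1.65e-05). Cyp2d22 had levels of 9.16, 9.28 and 9.55 in untreated and 8.28, 8.64 and 9.57 in AOM+DSS fl/fl colon, and 8.74, 9.26 and 9.44 against 8.01, 8.44 and 8.64 in knockout colon. It fell by 0.60 ± 0.13 and 0.82 ± 0.13 (limma, adjusted p = 0.000302 and 6.92e-07). In knockout mice it was the 1 member whose AOM+DSS samples all lay below the untreated samples, as held for 1.06% of all genes. No member did so in fl/fl mice (0.234% of all genes), and none had all AOM+DSS samples above the untreated samples (0.821% of all genes in fl/fl and 3.68% in knockout mice). Cyp4f13 had levels of 9.19, 9.49 and 9.62 in untreated and 8.70, 9.04 and 9.56 in AOM+DSS fl/fl colon, and 9.14, 9.40 and 9.62 against 8.45, 8.72 and 9.27 in knockout colon. It fell by 0.37 ± 0.10 and 0.63 ± 0.10 with overlap (limma, adjusted p = 0.00455 and 1.02e-06). Cyp4f16 fell by 0.42 ± 0.12 and 0.45 ± 0.12.

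Cyp4f18, a leukotriene B4 hydroxylase of neutrophils and other myeloid cells, had levels of 5.43, 6.04 and 6.42 in untreated and 6.03, 6.34 and 6.58 in AOM+DSS fl/fl colon. In knockout colon they were 5.72, 6.08 and 6.29 against 6.20, 6.63 and 6.84. The groups overlapped, and it rose by 0.34 ± 0.09 and 0.50 ± 0.09 (limma, adjusted p = 0.00279 and 5.33e-06). All 8 macrophage markers were also higher after AOM+DSS in both genotypes, against 12.2% of all genes in fl/fl and 16% in knockout mice. Their list means were 8.30 to 8.86 in untreated and 8.99 to 9.68 in AOM+DSS fl/fl colon. In knockout colon they were 8.34 to 9.12 against 9.22 to 9.77. The part of the macrophage markers' cells in the Cyp4f18 rise was not tested. Cyp2e1 was higher in fl/fl mice by 0.92 ± 0.33 (limma, adjusted p = 0.0383), a call that ended without the arrays high in small-intestinal genes (0.87, adjusted p = 0.07). In knockout mice its change was -0.02. The difference between the genotypes did not pass as an interaction (-0.94 ± 0.47, limma, adjusted p = 0.812).

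**Figure D5:**
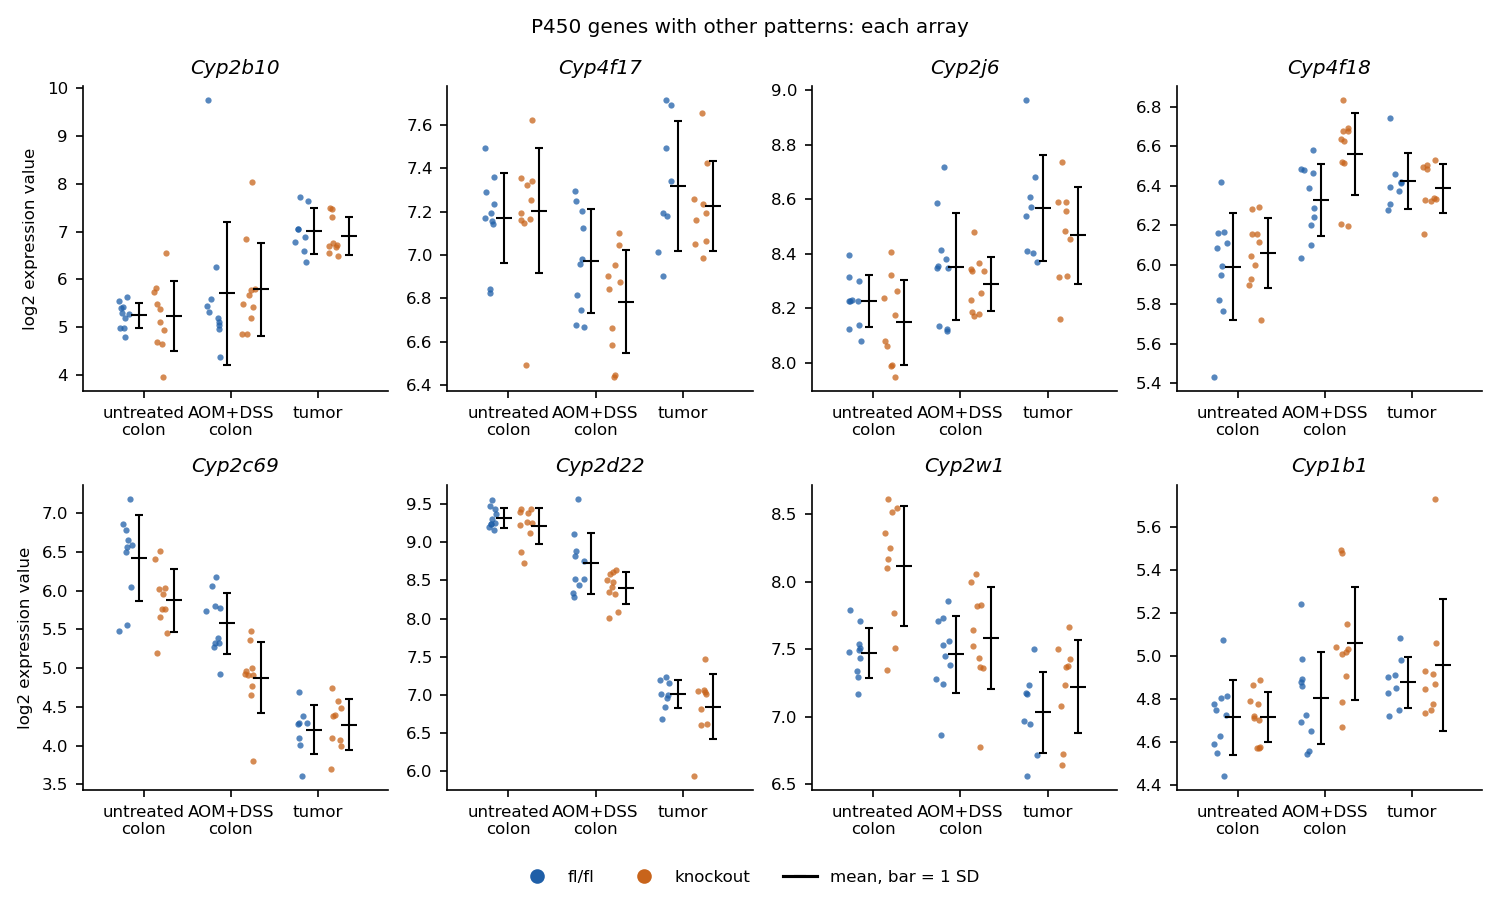
Log2 expression value (vertical axes, which differ between genes and do not start at 0) of 8 P450 genes with other patterns, 1 point per array, in untreated colon, AOM+DSS colon and tumors of fl/fl (blue) and knockout (orange) mice. Black dashes are means and bars 1 SD. Cyp2b10 is higher in tumors apart from single colon arrays, Cyp4f18 is higher after AOM+DSS, and Cyp2c69 and Cyp2d22 step down from untreated colon to AOM+DSS colon to tumors.

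The falls that passed in knockout mice alone were led by Cyp2d12 (-0.98 ± 0.26), Cyp2s1 (-0.72 ± 0.16), Cyp2d26 (-0.69 ± 0.18), Cyp2w1 (-0.54 ± 0.14), Cyp2d10 (-0.44 ± 0.16) and Cyp4f17 (-0.42 ± 0.11). Cyp2c23, Cyp2u1, Cyp2c37 and Cyp4a29 changed by -0.30, -0.30, -0.29 and -0.23. The Cyp2c23 call ended with only the compared groups in the fit (adjusted p = 0.12), and the Cyp4a29 call ended without the array apart (adjusted p = 0.0587) and without the arrays high in small-intestinal genes (adjusted p = 0.0502). Cyp4b1 changed by -0.33 in knockout mice and did not pass with all arrays (limma, adjusted p = 0.0997), and it passed without the arrays high in small-intestinal genes (-0.42, adjusted p = 0.00698). Cyp2s1 changed by -0.42 in fl/fl mice (limma, adjusted p = 0.0512), which passed with dim genes removed (adjusted p = 0.0375) and with only the compared groups in the fit (adjusted p = 0.0214). In fl/fl mice Cyp2d26 changed by -0.28 and did not pass with all arrays, and it passed without the arrays high in small-intestinal genes (-0.47, limma, adjusted p = 0.0079), as did Cyp3a16, a dim gene (-0.17 with and -0.19 without them, adjusted p = 0.0609 and 0.0385). Cyp2b13, a dim gene, fell in fl/fl mice by 0.26 ± 0.09, which did not hold after a shift of all arrays to 1 median (-0.21, limma, adjusted p = 0.0863) or without the arrays high in small-intestinal genes (-0.26, adjusted p = 0.0535). A pass in 1 genotype is not a difference between genotypes, and no interaction passed. Cyp2c55 changed by -0.41 ± 0.37 in fl/fl and -0.66 ± 0.37 in knockout mice and did not pass (limma, adjusted p = 0.438 and 0.182). Its spread in this model is shared with the tumors, where its SD was 1.75 in fl/fl and 1.19 in knockout mice against 0.20 to 0.61 in colon. With only the compared colon groups in the fit the same changes passed (limma, adjusted p = 0.00829 and 0.0122).

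Family 1, the targets of the aryl hydrocarbon receptor that activate polycyclic carcinogens, was dim and changed little. Cyp1a1 had levels of 5.15, 5.56 and 5.82 in untreated colon, 5.10, 5.37 and 7.25 after AOM+DSS and 4.99, 5.20 and 5.36 in tumors of fl/fl mice. In knockout mice they were 5.07, 5.45 and 5.60, 5.08, 5.37 and 5.63, and 4.90, 5.15 and 5.54. The value of 7.25 was fl/fl AOM+DSS replicate 7, the array highest in small-intestinal genes, and the next highest of its group lay among the other groups' values. Cyp1a1 passed in no condition comparison, with the largest change in fl/fl tumors (-0.32 ± 0.14, limma, adjusted p = 0.0678). Without the 3 arrays high in small-intestinal genes, replicate 7 among them, it was -0.15 ± 0.09 (adjusted p = 0.224). With all arrays it passed after a shift of all arrays to 1 median (-0.34, adjusted p = 0.0457).

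Cyp1a2 had medians of 5.68, 5.50 and 5.43 in untreated colon, AOM+DSS colon and tumors of fl/fl mice, within a range of 5.13 to 6.08 over these samples. In knockout mice the medians were 5.62, 5.50 and 5.53, within 5.04 to 5.92. No comparison passed and all groups overlapped. Cyp1b1, which is found in stromal as well as epithelial cells, had levels of 4.44, 4.74 and 5.07 in untreated colon, 4.54, 4.79 and 5.24 after AOM+DSS and 4.72, 4.88 and 5.08 in tumors of fl/fl mice. In knockout mice they were 4.57, 4.72 and 4.89, 4.67, 5.03 and 5.49, and 4.73, 4.87 and 5.73. It was higher after AOM+DSS in knockout mice by 0.34 ± 0.09 (limma, adjusted p = 0.00338), and the fl/fl change was 0.09 ± 0.09.

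The third question was whether loss of the epithelial insulin receptor changed these genes. By limma no member passed in untreated colon, where 0.00451% of all genes were lower and 0% higher, or in tumors, where 0.00902% were lower and 0% higher. At an unadjusted p under 0.05 there were 3 members higher and 5 lower in untreated colon and 0 and 2 in tumors, against 2.18% and 2.84%, and 1.72% and 2.74%, of all genes. In AOM+DSS colon 2 members were higher and 13 lower at that level, against 7.06% and 6.01% of all genes. After AOM+DSS 1 member was lower, against 0.122% of all genes, and none was higher, against 0.419%. This was Cyp2c40, at 3.28, 3.88 and 4.50 in fl/fl and 3.02, 3.28 and 4.0 in knockout colon, with overlap and a difference of -0.60 ± 0.14 (limma, adjusted p = 0.0367). It is a dim gene, and the call ended with only the compared groups in the fit (adjusted p = 0.126). The probe set assigned to Cyp2c67 and Cyp2c68 together, no member, was also lower in knockout mice, by -0.87 ± 0.21 after AOM+DSS (limma, adjusted p = 0.0392), and its untreated difference was -0.89 ± 0.21 (adjusted p = 0.227).

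In untreated colon the smallest p were those of Cyp2w1, Cyp2c40 and Cyp2c68. Cyp2w1, known from fetal colon and human colorectal tumors, had levels of 7.17, 7.49 and 7.79 in fl/fl and 7.35, 8.21 and 8.61 in knockout colon, a difference of 0.64 ± 0.14 (limma, adjusted p = 0.196). Without untreated knockout replicate 2, the array that stood apart and the lowest of its group, the difference was 0.73 and passed (adjusted p = 0.0248), and with array weights it was 0.76 (adjusted p = 0.00331). In AOM+DSS colon it was 0.12 ± 0.14. Cyp2c40 differed by -0.48 ± 0.14 and Cyp2c68 by -0.76 ± 0.24 in untreated colon (limma, adjusted p = 0.539 and 0.613), the latter by -0.56 without replicate 2. After AOM+DSS the next smallest p were those of Cyp2c69 (-0.70 ± 0.18, limma, adjusted p = 0.051, and 0.0482 without the array apart) and Cyp4f13 (-0.32 ± 0.10, adjusted p = 0.101). In tumors they were those of Cyp3a16 (-0.19 ± 0.07), Cyp2j11 (-0.26 ± 0.13) and Cyp2j5 (-0.15 ± 0.08), each with limma's adjusted p = 1.

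Neither interaction was passed by any member, against 0% of all genes in each direction. For the AOM+DSS response, the knockout change minus the fl/fl change had the smallest p in Cyp2w1 (-0.52 ± 0.20), Cyp2a4 (0.23 ± 0.10) and Cyp2e1 (limma, adjusted p = 0.803, 0.803 and 0.812), and 1 member in each direction had an unadjusted p under 0.05. For the tumor change it was smallest in Cyp2c40 (0.72 ± 0.21), Cyp2c69 (0.77 ± 0.27) and Cyp4f13 (0.33 ± 0.15), with limma's adjusted p of 0.467, 0.561 and 0.694, and 3 members higher and 1 lower had an unadjusted p under 0.05. For Cyp2c55 it was 0.18. A p that misses the threshold does not show that the genotypes act alike.

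Most measured regulators of P450 genes were also lower in tumors, and a link to the P450 falls was not tested. Of 19 measured, 15 were lower and 1 higher in fl/fl tumors and 16 lower and 1 higher in knockout tumors, with a median change of -0.58 and -0.66. Of all genes, 20.2% were lower and 21% higher in fl/fl tumors, and 21.4% and 21.5% in knockout tumors. Nr5a2, a nuclear receptor of gut epithelium that drives steroid synthesis, was lower with changes of -2.28 ± 0.14 and -1.93 ± 0.14, and the vitamin D receptor Vdr with -1.64 ± 0.10 and -1.54 ± 0.10. Hnf4g fell by 1.36 ± 0.14 and 1.26 ± 0.13, the bile acid receptor Nr1h4 by 1.01 ± 0.12 and 1.33 ± 0.12, and the glucocorticoid receptor Nr3c1 by 0.65 ± 0.07 and 0.74 ± 0.07. Chosen after their values were seen, the xenobiotic receptors Nr1i2 and Nr1i3 fell by 1.01 and 0.67 in fl/fl and 0.90 and 0.67 in knockout mice, and Hnf4a by 0.58 and 0.59. The 1 regulator that rose was the aryl hydrocarbon receptor Ahr, by 0.46 ± 0.07 and 0.36 ± 0.07. After AOM+DSS 2 regulators were lower and 1 higher in fl/fl mice, against 10.5% and 12.2% of all genes. In knockout mice 6 were lower and 2 higher, against 14.2% and 16%. Nr5a2 (-0.54 and -0.91) and Nr1i2 (-0.46 and -0.55) were lower and Tiparp, a target of the aryl hydrocarbon receptor, higher (0.52 and 0.61) in both.

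Partners that share substrates with the members moved both ways in tumors. Of 9 epoxide hydrolases and flavin monooxygenases, 5 were lower and 1 higher in fl/fl and 6 lower and 1 higher in knockout tumors. Of all genes, 20.2% were lower and 21% higher in fl/fl tumors, and 21.4% and 21.5% in knockout tumors. The largest changes in this list were those of Fmo2 (-2.70 ± 0.19 and -2.84 ± 0.19), Fmo1 (-2.08 ± 0.14 and -1.91 ± 0.14), Fmo4 (-1.31 and -0.83) and Fmo5 (-1.14 and -1.28). Of 7 genes listed for the release of arachidonic acid or its use by other oxygenases, 4 were higher and 1 lower in both genotypes. The rises were led by the phospholipase gene Pla2g2a (3.39 ± 0.26 and 3.28 ± 0.25) and the lipoxygenases Alox12 (2.88 ± 0.22 and 3.13 ± 0.21) and Alox15 (1.61 ± 0.22 and 1.94 ± 0.21). The phospholipase Pla2g4a was lower (-0.41 and -0.50). These are RNA levels, and whether working enzyme is made, by Pla2g2a among them, was not measured. After AOM+DSS the same list had 5 higher in fl/fl mice, against 12.2% of all genes. In knockout mice it had 4 higher and 1 lower, against 16% and 14.2%.

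P450 oxidoreductase (Por) and ferredoxin reductase (Fdxr) were not analysed here. Of 11 other electron donors and heme enzymes, 1 was higher and 4 lower in fl/fl tumors and 3 higher and 3 lower in knockout tumors, where the shares of all genes were 21% and 20.2%, and 21.5% and 21.4%. The heme-degrading enzyme Hmox1 was higher (0.77 ± 0.16 and 0.54 ± 0.15), as it was after AOM+DSS (1.08 ± 0.15 and 1.34 ± 0.15), and the P450-binding protein Pgrmc1 was lower in tumors (-0.29 and -0.32). Of 20 P450 genes in families above 4, which make steroids, bile acids and prostanoids, 2 were higher and 2 lower in fl/fl tumors. In knockout tumors 3 were higher and 3 lower, and the shares of all genes are those just given. The steroid 21-hydroxylase Cyp21a1 rose by 2.10 ± 0.13 and 1.76 ± 0.12 and the side-chain cleavage enzyme Cyp11a1 by 0.93 ± 0.14 and 1.01 ± 0.14. The prostacyclin synthase Ptgis fell by 0.78 ± 0.07 and 0.70 ± 0.07 and the oxysterol hydroxylase Cyp7b1 by 0.61 and 0.87.

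Across single arrays the falling members varied together only in part. After each group's mean was removed, the 276 pairs among the 24 members lower in tumors of both genotypes had a median Pearson's r of 0.21 over all 57 arrays, against 0.02 over the 2556 pairs of all members, most of which are dim. The 7 Cyp2d members that fell in both genotypes had a median of 0.41, with all 21 pairs above 0. Within untreated colon, AOM+DSS colon and tumors alone the Cyp2d median was 0.54, 0.37 and 0.42. These correlations share arrays and, for close paralogs, possibly target sequence, and are given as a description.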

How the data were processed

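For each probe set and array the authors deposited a log2 value of expression, for which the submitters' processing notes name RMA, from Affymetrix whole-transcript arrays of 250 ng of RNA per the labels' protocols. RMA quantile-normalizes the arrays, so a shift of all RNA cannot be seen, and it compresses changes of dim genes. Neither the RMA version nor a filter is given in the sources used here. Precision is limited by how many arrays a group has.

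Of 41345 probe sets, 23521 carry 1 gene symbol in the platform's annotation, which can be old, and they name 22180 genes. The brightest probe set stood for each gene. A model with 1 mean per group was fitted to all 57 arrays with limma 3.58.1 in R 4.3.3 (lmFit, eBayes, 51 residual degrees of freedom), with Benjamini-Hochberg adjustment over all genes and a threshold of 0.05, and was tested on simulated data. The design text calls the arrays of a group biological replicates. Array medians lay between 5.92 and 6.04.

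The members, partner genes and marker lists were chosen with earlier results of these data known. Named with values are the largest called falls (up to 12) and rises (up to 8) per condition comparison, family 1, the brightest member of each subfamily of 3 or more, the called members or else the 3 smallest p per genotype comparison, and up to 4 called genes per partner list and comparison. Others named, such as the dim neighbours in the clusters and members changed by less, were chosen after their values were seen. The alternatives were 2 further scalings, a filter on dim genes, averaged probe sets for a gene, another prior, only the compared groups in the fit, array weights, the replicate number as a block and leaving out the array that stood apart. Leaving out the 3 arrays high in small-intestinal genes was chosen after seeing the data.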

Additional observations from a re-analysis of the deposited data

Results flagged for a closer look

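Of 186 sets of values searched, 30 had 1 sample far from the others by Dixon's criterion, which chance meets in about 1 in 20 sets. Untreated knockout replicate 2 was the far sample for Cyp2c65 (high, 9.45), Cyp4f14 (high, 9.89), Cyp4b1 (high, 7.93), Cyp2c68 (low, 7.35), Cyp2d12 (low, 8.11), Cyp2f2 (low, 8.15) and the surface colonocyte mean (high, 11.94). AOM+DSS fl/fl replicate 7 was high for Cyp2b10 (9.76), Cyp2c65 (8.92), Cyp4b1 (8.09), Cyp1a1 (7.25), the small-intestinal mean (11.18) and the hepatocyte mean (7.70). AOM+DSS knockout replicate 10 was high for Cyp4b1 (7.23) and the hepatocyte mean (7.65).

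Among tumors, knockout replicate 6 was high for Cyp2f2 (9.96), Cyp2e1 (6.77), Cyp1b1 (5.73) and the squamous mean (8.62). In fl/fl tumors replicate 4 was high for the squamous mean (9.16), replicate 6 for the small-intestinal mean (9.33), replicate 2 for the adipocyte mean (6.60) and replicate 3 for Cyp4f18 (6.74), and replicate 8 was low for Cyp4b1 (5.44). In untreated fl/fl colon replicate 4 was low for Cyp2c68 (9.25) and Cyp2d34 (11.11), and replicate 10 was high for the small-intestinal mean (8.59). Single low values were those of Cyp4f17 in untreated knockout replicate 1 (6.49) and Cyp2c69 in AOM+DSS knockout replicate 7 (3.80). Cyp2c40 was high in AOM+DSS knockout replicate 2, at 4.0.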

How the results depend on the processing

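No P450 result changed direction under any alternative. Of 83 called P450 changes, 83 passed with another prior and when a gene's probe sets were averaged, 82 with array weights, with the replicate block and without the array that stood apart, 81 with each further scaling, 79 without the arrays high in small-intestinal genes and 78 with only the compared groups fitted. With dim genes removed, 64 were tested and all 64 passed. After AOM+DSS, members higher in fl/fl mice went from 2 to 1 without dim genes and without the arrays high in small-intestinal genes, and in knockout mice from 2 to 0 without dim genes. Members higher in untreated knockout colon went from 0 to 1 with array weights and without the array that stood apart. Members lower in knockout AOM+DSS colon went from 1 to 2 with a further quantile normalization, array weights, the replicate block and without the array that stood apart, the added gene being Cyp2c69 (adjusted p from 0.0198 to 0.0482), and to 0 without dim genes and with only the compared groups fitted.

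Same-numbered samples varied little together (median correlations of same-numbered deviations from -0.07 to 0.13 over pairs of groups). Such correlations cannot show whether a mouse gave both samples, and the labels do not say. With the replicate block the Cyp2w1 call in knockout tumors was lost (adjusted p = 0.0546) and no other called P450 change was. Cyp1a1 in fl/fl tumors passed after both further scalings (adjusted p = 0.0457 and 0.0354). Of the 72 members 46 were dim in every group, where array signal limits what can be seen.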
